A study of Mus musculus with 2 samples.

Results

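Aldo-keto reductases are enzymes that use NADPH to reduce aldehydes and ketones, including sugars, prostaglandins and steroids, to alcohols. In the mouse adrenal cortex they are known above all through Akr1b7, which is made in the zona fasciculata, the corticosterone-producing zone, and reduces the aldehyde released when the cholesterol side chain is cut. The other well-known member there is Akr1c18, the hydroxysteroid dehydrogenase that inactivates progesterone and is the usual marker of the X-zone, an inner cortical zone of female mice. Results are given for 10 genes out of the 55536 in the gene tables, chosen by name: Akr1a1, the 4 genes of the Akr1b cluster (Akr1b3, Akr1b7, Akr1b8, Akr1b10) and 5 genes of the Akr1c cluster (Akr1c6, Akr1c12, Akr1c13, Akr1c14, Akr1c18). All 10 were found in both gene tables, and their 33 annotated transcripts in the transcript tables.

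The RNA was total RNA from whole adrenal glands of 2 adult B6CASTF1/J females, first-generation hybrids of the C57BL/6J and CAST/EiJ strains, aged 8 to 10 months and supplied by The Jackson Laboratory. Both animals carried the same genotype and had no stated treatment, so the design holds 1 group and no contrast between conditions. Replicate 1 (animal 1) had 40453707 expected counts and replicate 2 (animal 3) had 34319787. With 1 library per animal no p-value was computed, and an animal's value cannot be separated from its library's.

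Transcript abundance is given as TPM, a unit scaled to transcript length and library depth that can be compared between genes. Akr1b7 was the most abundant of the 10 genes at 540 ± 215 TPM (mean ± SD, n = 2), rank 42 of 22015 nuclear protein-coding genes. Akr1c18 followed at 359 ± 8.65 TPM and Akr1a1 at 356 ± 13.8 TPM, ranks 88 and 89. Akr1b3 stood at 113 ± 9.47 TPM, Akr1b8 at 86.0 ± 2.30 TPM and Akr1b10 at 61.8 ± 1.28 TPM. The remaining 4 genes, all of the Akr1c cluster, were below 4 TPM in both animals. Whole glands were used, so more cells of a zone and more RNA per cell cannot be told apart for any of these genes.

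**Figure D1:**
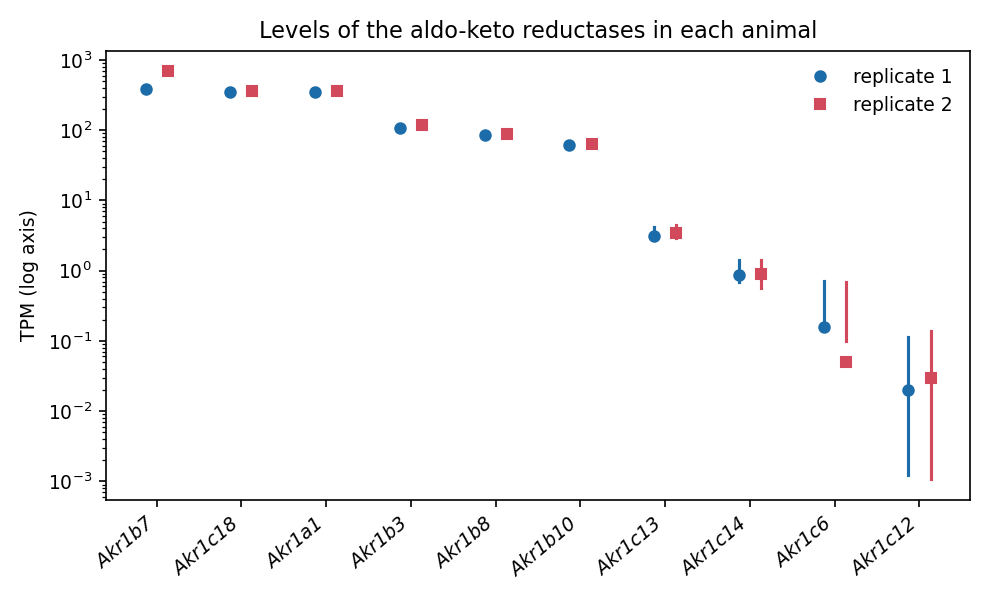
TPM of the 10 aldo-keto reductases in each animal, on a log axis, in order of mean level. Circles are replicate 1, squares replicate 2, and vertical lines the deposited lower and upper TPM bounds. Of the 10 genes, 6 lie above 60 TPM in both animals, and among these the gap between animals is widest for Akr1b7.

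The coding sequences show which members could be mistaken for one another. The first 60 coding bases of the 4 Akr1b genes are set out here because they span the closest relatives of Akr1b7. They run from the start codon of each gene's most abundant protein-coding transcript in GENCODE M21, and capitals mark bases that differ from Akr1b7.
Akr1b7: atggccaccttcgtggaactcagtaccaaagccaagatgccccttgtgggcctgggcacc
Akr1b8: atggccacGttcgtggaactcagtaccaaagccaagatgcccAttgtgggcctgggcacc
Akr1b10: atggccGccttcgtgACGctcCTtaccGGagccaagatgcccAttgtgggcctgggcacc
Akr1b3: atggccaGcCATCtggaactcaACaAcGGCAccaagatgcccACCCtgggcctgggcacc
Akr1b8 differs from Akr1b7 at 2 of these 60 bases, Akr1b10 at 9 and Akr1b3 at 16. Over the whole coding sequence of 948 bases the order is different: Akr1b10 was 89.2% identical to Akr1b7, Akr1b8 84.8% and Akr1b3 72.1%.

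The 5 Akr1c genes are set out in the same way, with capitals for bases that differ from Akr1c18, because a single gene held nearly all the RNA of this cluster. For Akr1c6, whose 4 and 2 counts do not rank its transcripts, the longest coding transcript was used.
Akr1c18: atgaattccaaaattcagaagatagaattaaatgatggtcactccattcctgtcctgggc
Akr1c13: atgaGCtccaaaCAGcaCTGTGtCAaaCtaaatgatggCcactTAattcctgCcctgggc
Akr1c12: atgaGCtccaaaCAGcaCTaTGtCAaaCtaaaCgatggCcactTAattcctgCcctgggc
Akr1c6: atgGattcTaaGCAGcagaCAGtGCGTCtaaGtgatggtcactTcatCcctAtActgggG
Akr1c14: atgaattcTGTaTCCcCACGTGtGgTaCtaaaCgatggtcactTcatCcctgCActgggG
Between 17 and 21 of the 60 bases differ from Akr1c18 in each of the other 4. Over the 969 coding bases, identity to Akr1c18 was 76.7% for Akr1c6, 76.0% for Akr1c14, 73.9% for Akr1c13 and 73.8% for Akr1c12. Akr1c12 and Akr1c13 were the closest pair of all, at 96.2% identity with 37 differing bases. Akr1a1 stood apart from every other member, at 51.3% to 57.3% identity.

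Whether a read can be assigned to a single member depends on exact matches of about read length. No window of 100 bases of the coding transcripts chosen for Akr1a1, Akr1b8, Akr1b10, Akr1c6, Akr1c14 or Akr1c18 occurred, on either strand, in a transcript of any other gene. In Akr1b7, 0.931% of windows did, all in Gm13857, a pseudogene annotated on the opposite strand over the end of Akr1b7 and listed at 0 counts in both animals. Akr1c12 and Akr1c13 shared 11.5% of their windows with each other. Akr1b3 was the exception, with 74.0% of its windows also present in other genes. A single transcript was searched per member. For Akr1c14 this was Akr1c14-201, the highest coding transcript by mean TPM in the alignment-based tables (0.345 against 0.32 for Akr1c14-202). In the index-based tables Akr1c14-202 was higher, at 0.455 against 0.0276 TPM.

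Akr1b7 lies on the plus strand at chr6:34412334-34423142 (mm10) and has 1 annotated transcript. It measured 388 TPM in replicate 1 and 692 TPM in replicate 2, from 17831 and 27026 expected counts. The level was thus higher in replicate 2, and the deposited bounds of the animals, 375 to 387 TPM and 669 to 685 TPM, did not overlap. After TMM scaling, an adjustment for library composition by edgeR, the log2 ratio of replicate 2 over replicate 1 was 0.74, or 1.68-fold. A spread of ratios of 0.31 log2 units (SD) follows from the biological coefficient of variation of 0.152 that edgeR estimated from the same libraries over 16966 genes.

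Among 12645 tested genes, those whose expected counts averaged at least 100, 410 (3.24%) were at least as far apart as Akr1b7 in either direction and 184 (1.46%) at least as high in replicate 2. The median absolute log2 ratio of tested genes was 0.15. Above 300 TPM, a limit chosen after the values were seen, 7 of 187 tested genes were as far apart as Akr1b7. Akr1b7 was the highest of these in replicate 2. The other 6, Fasn, Hspa8, Car3, Cfd, Fabp4 and Scd1, had log2 ratios from -1.08 to -0.84 and were all lower in replicate 2.

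**Figure D2:**
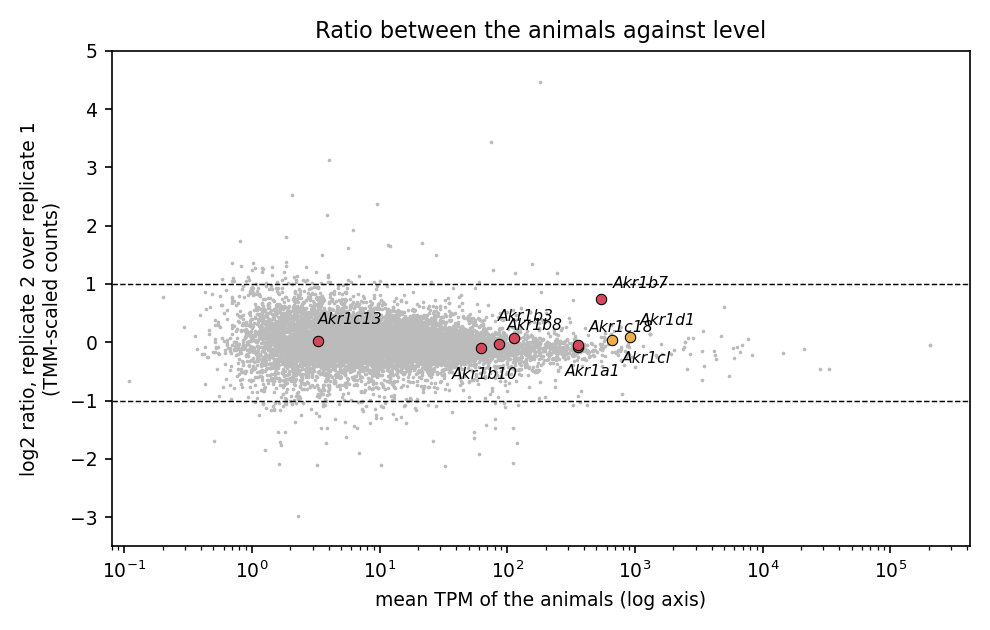
Log2 ratio of replicate 2 over replicate 1 of TMM-scaled counts for all tested genes (grey) against mean TPM on a log axis, with the 7 tested members in red and Akr1d1 and Akr1cl in yellow. Dashed lines mark 2-fold; 6 genes fall outside the plotted range. Akr1b7 stands at 0.74 while the other 6 members lie within 0.10 of 0.

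The other 6 tested members had log2 ratios of 0.10 or less in size by TMM. Akr1c18, at chr13:4132615-4150654 on the minus strand, measured 353 TPM in replicate 1 and 365 TPM in replicate 2, a log2 ratio of -0.04 by TMM. Its bounds overlapped, and its counts of 15016 and 13220 carried an estimation SD of 0 in the alignment-based tables. The index-based tables gave it 13123 and 11806 counts. Akr1a1, an aldehyde reductase that also converts glucuronate on the route to ascorbate, lies at chr4:116636510-116651680 on the minus strand. It measured 346 and 366 TPM, and its log2 ratio was -0.08 by TMM and 0.08 on the deposited TPM. Its direction therefore turned with the scaling, although its bounds of 332 to 349 and 349 to 368 TPM did not overlap.

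Akr1b3 is aldose reductase, which turns glucose into sorbitol in the first step of the polyol pathway. It lies at chr6:34302434-34317478 on the minus strand and measured 107 and 120 TPM, a log2 ratio of 0.07 with bounds apart. Akr1b8, at chr6:34354119-34368463 on the plus strand, measured 84.35 and 87.6 TPM, a log2 ratio of -0.03. Akr1b10, at chr6:34384218-34396950 on the plus strand, measured 60.9 and 62.7 TPM, a log2 ratio of -0.10. The animals' bounds overlapped for both. Across the 5 members above 60 TPM other than Akr1b7, the coefficient of variation of TPM ran from 2.07% to 8.35%, against 39.8% for Akr1b7.

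A gene was called different between the animals when its log2 ratio was 1 or more in size, its expected counts at least 100 on average and its TPM bounds apart. Of the 10 members 7 could be tested, and 0 of the 7 were called, against 1.20% of all tested genes. By bounds alone 3 of the 7 were apart (Akr1b7, Akr1a1 and Akr1b3), against a background of 27.4% in either direction. All 3 were higher in replicate 2 on TPM. Of all tested genes, 18.1% had bounds apart and replicate 2 higher. The bounds are set within each library, so a gene with many counts can have them apart at a small ratio. Akr1a1 was apart at -0.08 by TMM from 16746 and 14340 counts. Akr1c14, which was not tested, was not apart at -0.55 from 86 and 53 counts. The background covers tested genes of every abundance. The median log2 ratio of the 7 members was -0.03, and that of all tested genes was also -0.03. On the deposited TPM the median of all tested genes was 0.07, a shift of 0.10 against TMM; relative to these medians Akr1b7 was higher by 0.76 on TPM and 0.77 on TMM.

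Ratios taken inside each library do not depend on scaling between animals. Akr1b7 was 4.60 times Akr1b8 in replicate 1 and 7.90 times in replicate 2, and 6.37 and 11.0 times Akr1b10. Against Akr1c18 it stood at 1.10 and 1.90 times. Akr1b8 to Akr1b10 gave 1.38 and 1.40. Within the Akr1b cluster, then, the ratio of Akr1b7 to its neighbours was higher in replicate 2, and that of Akr1b8 to Akr1b10 was close in both animals.

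Akr1b7 transcription is known to respond to ACTH through cyclic AMP. Among 8 genes listed as early responders to that signal, 5 were called, against 1.20% of all tested genes. Nr4a1, Per1, Sik1 and Nr4a2 were higher in replicate 2 and Fos was lower. Nr4a1, an orphan nuclear receptor, measured 14.8 and 135 TPM, a log2 ratio of 3.43. Sik1, a kinase that restrains cyclic AMP signalling, measured 2.95 and 16.3 TPM, and Per1, a clock gene, 10.3 and 32.4 TPM. Crem and Nr4a3, the others among the highest of the list, had log2 ratios of -0.56 and -0.34. Bounds were apart for all 8 genes, 4 of them higher in replicate 2 and the rest lower. Over all tested genes 27.4% had bounds apart. The listed zona fasciculata genes gave 0 of 7 called, although all 7 had bounds apart, 3 of them higher in replicate 2. Star measured 6319 and 5650 TPM, Cyp11b1 3079 and 3727 TPM and Cyp11a1 2459 and 2729 TPM. The part of these genes in the Akr1b7 ratio was not tested.

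Marker RNA of tissue other than cortex also differed between the libraries. The amount of such tissue and its RNA per cell cannot be told apart. Of all tested genes 1.20% were called, in either direction. All 10 adipocyte markers had a log2 ratio below 0 by TMM, where the median of all tested genes was -0.03. Of these markers 5 were called lower in replicate 2 (Cfd, Fabp4, Ucp1, Adipoq and Cidea). The ratio of Lep was only -0.0077, and its TPM was higher in replicate 2 (2.04 and 2.95). The summed level of the adipocyte markers was 1683 TPM in replicate 1 and 893 TPM in replicate 2. Plin1, also among the highest of that list, measured 149 and 109 TPM. Of 8 liver markers 4 were tested and 2 (Alb and Apob) were called higher in replicate 2; the summed level was 95.4 and 75.2 TPM, most of it Cyp2e1, which was lower in replicate 2, and Ahsg was among the highest 3. Of 6 capsule and fibroblast markers 1, Col3a1, was called, lower in replicate 2. The highest of that list were Dcn, Nr2f2 and Pdgfra. The part of all these markers in the values of the members was not tested.

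The remaining marker lists gave 0 called: 9 zona glomerulosa genes (highest Kcnk3, Dab2, Cyp11b2), 7 chromaffin genes (Chga, Chgb, Th), 5 endothelial genes (Plvap, Kdr, Pecam1) and 6 macrophage genes (Lyz2, C1qa, Csf1r). All of these were tested. The 7 chromaffin and 5 endothelial genes all had log2 ratios below 0, with medians of -0.30 and -0.15. The median of all tested genes was also below 0, at -0.03, and their median absolute log2 ratio was 0.15. Bounds were apart for 4 chromaffin genes and 1 endothelial gene, each lower in replicate 2. Of all tested genes 27.4% had bounds apart in either direction. Of the 9 zona glomerulosa genes 4 were above 0 and 7 had bounds apart, 5 of these higher in replicate 2. Of the 6 macrophage genes 1 was above 0. Kidney markers summed to 0.46 and 0.44 TPM, with Aqp2 at 0.45 and 0.44 TPM, Slc12a3 at 0.01 and 0 TPM, and Umod, Slc34a1 and Slc12a1 listed at 0 in both animals. Ovary and oviduct markers summed to 1.75 and 1.14 TPM, with Foxl2, Ovgp1 and Amh the highest and Zp3 and Fshr listed at 0. Foxl2, the 1 tested gene of that list, measured 1.21 and 0.67 TPM from 149 and 70 counts, a log2 ratio of -0.94 with bounds apart, and was not called. Markers of cortex and medulla were thus high and those of kidney and ovary at or near 0 in both libraries.

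Taken between its outermost members, the Akr1b cluster spans 120.7 kb of chromosome 6, from 34302434 to 34423142. The 4 protein-coding genes within these limits are all members. Their summed level was 640 TPM in replicate 1 and 963 TPM in replicate 2. Akr1b7, the last gene of the cluster in coordinate order, held 60.6% and 71.9% of it. The shares of the other 3 were correspondingly smaller in replicate 2: Akr1b3 held 16.7% and 12.5%, Akr1b8 13.2% and 9.10%, and Akr1b10 9.52% and 6.52%. The pseudogenes Gm13859 and Gm13858, between Akr1b8 and Akr1b10, had at most 12 counts. Gm14546, antisense over Akr1b3, was listed at 0 counts in both animals, as was Gm13857.

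**Figure D3:**
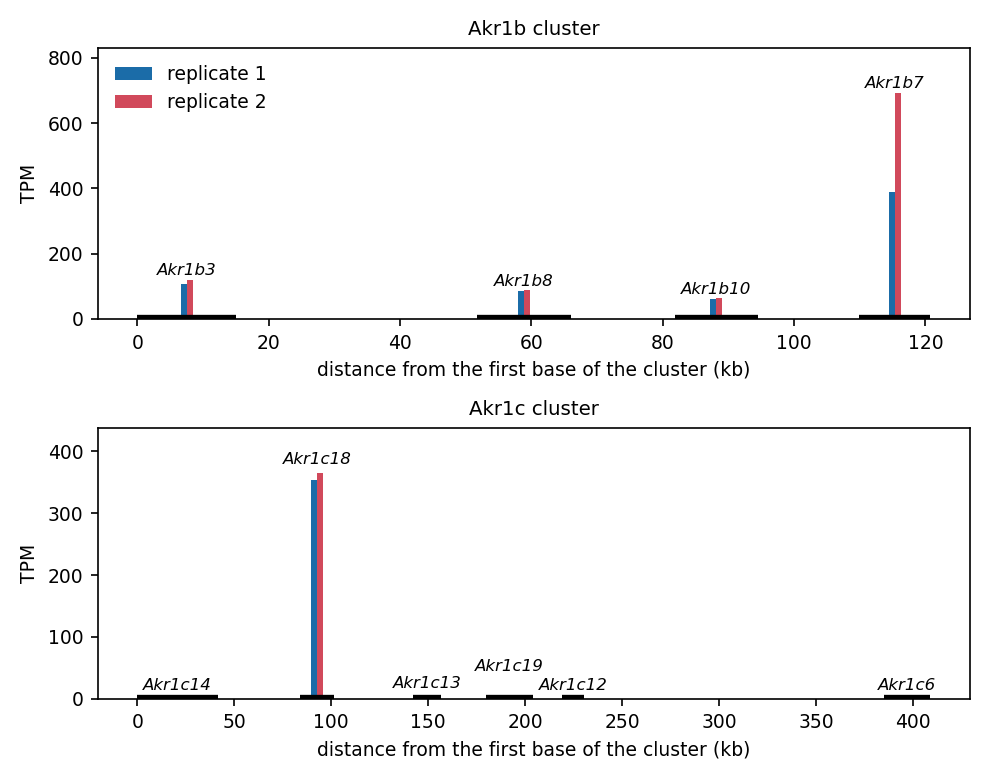
TPM of the protein-coding genes between the outermost members of the Akr1b and Akr1c clusters in each animal. Genes are placed by distance in kb from the first base of that stretch, with black bars for the extent of each gene. In the Akr1b cluster all 4 genes stand clear of the axis and Akr1b7 holds 60.6% and 71.9% of the total; in the Akr1c cluster only Akr1c18 is visible at this scale.

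Taken between its outermost members, 408.9 kb of chromosome 13 from 4049011 to 4457877, the Akr1c cluster was dominated by Akr1c18. The 6 protein-coding genes within these limits are the 5 members and Akr1c19, which was listed at 0.38 and 0.46 TPM. Akr1c20 and Akr1c21, which are not members, lie beyond Akr1c6, at chr13:4486849-4523345 and chr13:4574075-4586541. Among the 5 members Akr1c18 held 98.8% of the summed TPM in each animal. The 8 other annotated genes inside these limits include the pseudogenes Gm2123, Gm9973 and Gm47951, each listed at 0 counts in both animals.

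Akr1c13, at chr13:4191150-4205596, was the next highest of the cluster at 3.15 and 3.41 TPM, from 138 and 127 counts, and its log2 ratio was 0.02. Akr1c18 was 112 and 107 times higher on TPM, with little difference between the animals. Akr1c14, a hydroxysteroid dehydrogenase at chr13:4049011-4090688, measured 0.87 and 0.91 TPM from 86 and 53 counts and was below the count limit for testing. Its log2 ratio was -0.55 by TMM and 0.06 on deposited TPM. Akr1c6, a hydroxysteroid dehydrogenase best known from liver, at chr13:4434306-4457877, had 4 and 2 counts. These bound its abundance at 0.0269 to 0.253 CPM (counts scaled to library depth) in replicate 1 and 0.00706 to 0.211 CPM in replicate 2 (exact 95% Poisson intervals, counting error only).

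Akr1c12, at chr13:4268176-4279433 on the minus strand, had 1.11 and 1.15 expected counts, with an estimation SD of 0.45 and 0.57 counts. The single count per animal and the 11.5% of windows shared with Akr1c13 leave its presence unresolved at this depth. Against Akr1c13 the rounded counts gave a ratio of 138 in replicate 1, with an exact 95% interval of 24.4 to 5490, and of 127 in replicate 2, with an interval of 22.4 to 5055.

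Akr1c12 and Akr1c13 are set side by side because their promoters are nearly as alike as their coding sequences. Both stretches are 200 bases, from 250 to 51 bases before the RefSeq start (GRCm38.p6, the build of mm10), and read in the direction of the gene. They cover chr13:4190937-4191136 on the plus strand for Akr1c13 and chr13:4279450-4279649 on the minus strand for Akr1c12. Capitals mark bases that differ or have no counterpart in the alignment.
Akr1c13: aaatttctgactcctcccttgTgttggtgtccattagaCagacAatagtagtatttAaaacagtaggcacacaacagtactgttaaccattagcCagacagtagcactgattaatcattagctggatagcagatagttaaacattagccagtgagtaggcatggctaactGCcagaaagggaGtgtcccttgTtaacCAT
Akr1c12: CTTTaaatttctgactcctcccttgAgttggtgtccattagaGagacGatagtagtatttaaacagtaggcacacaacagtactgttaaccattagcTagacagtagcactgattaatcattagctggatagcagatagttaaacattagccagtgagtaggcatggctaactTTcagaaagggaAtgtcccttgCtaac
The stretches were identical at 188 of 196 aligned bases (95.9%), with 8 differing bases and 8 gap positions. The other pairs of Akr1c members gave 40.8% to 50.7% identity over the same stretch. A promoter was found in the RefSeq table for 9 of the 10 members; Akr1b3 was not matched.

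For Akr1b7, the tested member with the widest log2 ratio, the same stretch before the start is at chr6:34412112-34412311 on the plus strand. Capitals mark a match to AGGTCA, read on the opposite strand, the core letters bound by Nr5a1 (the steroidogenic factor of the adrenal cortex) and other nuclear receptors.
Akr1b7: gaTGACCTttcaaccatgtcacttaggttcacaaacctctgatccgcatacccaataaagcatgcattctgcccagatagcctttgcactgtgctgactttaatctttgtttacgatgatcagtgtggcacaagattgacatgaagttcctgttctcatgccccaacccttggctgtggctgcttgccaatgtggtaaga
The match begins at -248 relative to the start. Windows of 300 bases (250 before the start to 50 after) were searched on both strands for AGGTCA, the cyclic AMP element TGACGTCA, the antioxidant element TGACNNNGC and the TATA box letters TATAAA, none of which contains another. The letters AGGTCA were also found in Akr1b10, at -215, and in Akr1c18, 28 bases after the start, and in 16.3% of all 32851 promoters of the table. TGACGTCA, found in 1.79% of promoters, and TGACNNNGC, found in 12.4%, had no match in any of the 9 windows. TATAAA, found in 13.6%, matched in Akr1b8 at -159, read on the opposite strand, and in Akr1c6 at -164. A match is a string of letters and was not tested as a binding site.

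Akr1b3 shared more of its windows with other genes than any other member did. Its windows recur in Gm38056, an unclassified transcript on chromosome 1 (66.7% of the windows), and in 3 processed pseudogenes, Gm6644 inside it (43.3%), Gm6736 on chromosome 12 (31.4%) and Gm12138 on chromosome 11 (22.6%). The alignment-based tables gave Gm12138 1305 and 1097 counts and Gm6736 688 and 827 counts, beside 3978 and 3783 counts for Akr1b3. Together the 4 genes held counts equal to 50.8% and 52.4% of those of Akr1b3. Gm38056 is on the plus strand, opposite to Gm6644, and the search did not separate matches by strand. Its 29 and 57 counts had an estimation SD of 0 in both animals. The SD was 36.6 and 40.5 counts for Gm6736, 22.6 and 24.3 for Gm12138, and 3.91 and 4.21 for Gm6644, listed at 0 counts. The estimation SD of the Akr1b3 count was 32.6 and 33.1 counts, the highest in counts among the 10 members, and the index-based tables gave 3994 and 3780 counts.

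Akr1b3 was also the member whose main transcript changed with the method. The alignment-based tables gave the protein-coding Akr1b3-201 57.0% and 55.0% of the gene's TPM, and Akr1b3-204 39.9% and 43.4%. The latter is annotated as retaining an intron and does not code for protein. In the index-based tables, made from reads and a transcript index, Akr1b3-204 was highest instead, at 58.7 and 67.5 TPM against 39.1 and 43.7 TPM for Akr1b3-201. The short coding transcript Akr1b3-205 moved furthest, from 2.35 and 0.44 TPM by alignment to 29.9 and 26.9 TPM by index.

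The exons show how little separates these transcripts. Akr1b3-204 has 554 bases in 2 exons. Its second exon, of 406 bases at chr6:34303934-34304339, is the last exon of Akr1b3-201. Its first, of 148 bases at chr6:34306540-34306687, contains the 83 bases of exon 9 of Akr1b3-201 and continues into the intron beside it. Counted in reads rather than TPM, transcripts that do not code for protein held 22.4% and 25.6% of the Akr1b3 counts.

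Of the 10 members 8 had several transcripts, and 6 of these had the same highest transcript in both animals by alignment; the exceptions were Akr1c6 and Akr1c14, which have few counts. In all 4 transcript tables the highest transcript was the same for 5 of the 8, Akr1b3 being the further exception. Akr1b7 and Akr1c12 have 1 transcript each. Akr1c18-201 held 93.9% and 95.4% of Akr1c18 TPM, and the rest was a shorter coding transcript. Akr1b8-201 held 99.8% and 100% of its gene, and Akr1c13-201 89.0% in both animals.

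Transcripts that do not code for protein held a visible part of 2 further abundant members. In Akr1b10 they held 21.6% and 28.3% of TPM by alignment, led by Akr1b10-203, a target of nonsense-mediated decay, at 17.8% and 18.8%. By index that transcript held 1.96% and 5.17%. In Akr1a1 the 412-base Akr1a1-202 held 7.79% and 13.4% of TPM by alignment and 28.6% and 32.5% by index. Counted in reads by alignment, Akr1a1-202 held 1.95% and 3.53% of its gene, and Akr1b10-203 held 17.4% and 19.0%. The share of these short or partial transcripts thus moved more with the table than between the animals.

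**Figure D4:**
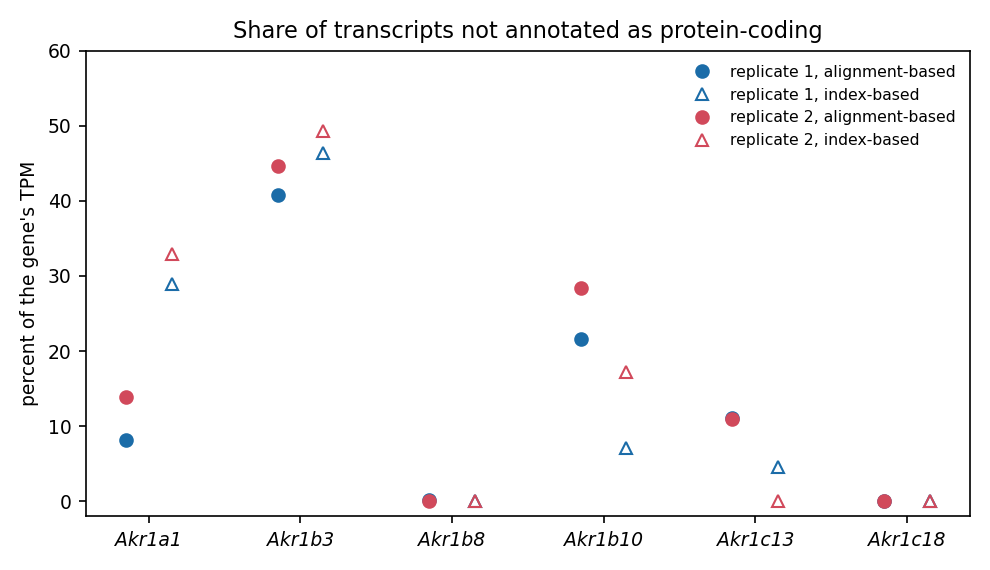
Percent of each gene's TPM held by transcripts not annotated as protein-coding, for 6 members above 3 TPM with several transcripts, in each animal. Filled circles are the alignment-based tables and open triangles the index-based tables. Akr1b3 is above 40% in all 4 tables, Akr1c18 is at 0, and Akr1a1 and Akr1b10 shift between the kinds of table.

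Of the 10 other aldo-keto reductases in the tables, both of the most abundant exceeded Akr1b7 in replicate 1. Akr1d1, the reductase that removes a ring double bond from steroid hormones and bile acid precursors, measured 853 and 970 TPM, and Akr1cl measured 628 and 688 TPM. Their log2 ratios were 0.09 and 0.04. Akr1cl stood at 1.62 times Akr1b7 in replicate 1 and 0.994 times in replicate 2. Akr7a5, an aflatoxin aldehyde reductase, measured 25.3 and 22.7 TPM and Akr1e1 12.6 and 13.5 TPM. The potassium channel subunits Kcnab3, Kcnab2 and Kcnab1, which share the fold, were at 2.5 and 4.22, 1.61 and 2.39, and 0.70 and 1.20 TPM. Akr1c20 was at 0.25 and 0.21 TPM, and Akr1c21 was listed at 0. Of these 10, 6 were tested and 0 called.

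The pathways in which the members act gave 0 called genes as well. The share of all tested genes called was 1.20%, so 0 in lists this small says little. By bounds alone 27.4% of all tested genes, of every abundance, were apart. Bounds can be apart at small ratios where counts are high. Hsd3b1 was apart at a log2 ratio of 0.06 from 461151 and 434229 counts. The counts of genes with bounds apart therefore do not show how far a list differs between the animals. The bounds were apart for 7 of 8 side-chain cleavage and corticosterone genes and 5 of 12 other aldehyde and carbonyl genes. They were apart for 4 of 7 progesterone and corticoid genes and 3 of 6 polyol and ascorbate genes. In side-chain cleavage and corticosterone synthesis, the source of the aldehyde that Akr1b7 reduces, 0 of 8 were called, with Hsd3b1 at 7281 and 8082 TPM and Cyp21a1 at 6280 and 6395 TPM beside Star. Akr1b7 was 0.158 times Cyp11a1, the side-chain cleavage enzyme, in replicate 1 and 0.254 times in replicate 2. Among other aldehyde and carbonyl enzymes 0 of 12 tested were called; Adh1 measured 2696 and 3052 TPM, Aldh2 938 and 867 TPM and Adh5 75.4 and 79.6 TPM. Adh1 and Aldh2 were thus above every member in both animals.

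For Akr1b3, the polyol and ascorbate list gave 0 of 6 tested genes called, with Sord, the next enzyme after aldose reductase, at 28.6 and 28.6 TPM, Ugdh at 27.5 and 28.6 TPM and Ugp2 at 30.0 and 23.7 TPM. Akr1b3 was 3.73 and 4.19 times Sord. For Akr1c18, the progesterone and corticoid list gave 0 of 7 tested genes called, with Srd5a2 at 55.4 and 72.5 TPM, Hsd17b10 at 52.1 and 50.4 TPM and Hsd17b4 at 52.0 and 44.8 TPM. The other X-zone markers gave 0 called too: Thrb measured 29.8 and 41.9 TPM (log2 ratio 0.45) and Pik3c2g 3.44 and 5.03 TPM (0.36), both with bounds apart, while the bounds of Akr1c18 overlapped. All 3 X-zone genes had the higher TPM in replicate 2, Akr1c18 with a log2 ratio of 0.05 that turned to -0.04 by TMM, and the difference between Akr1c18 and the other genes was not tested.

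Several Akr1b enzymes can also form prostaglandin F from its precursor. In the prostaglandin list 0 of 9 tested genes were called, with Ptges3 at 69.8 and 52.0 TPM, Fam213b at 37.6 and 39.1 TPM and Ptgr2 at 28.6 and 23.5 TPM. Ptgs2 was at 0.14 and 0.15 TPM, and bounds were apart for 2 of the 9 tested genes. Targets of NRF2, the stress-response factor that drives some aldo-keto reductases, gave 0 of 7 called and 1 with bounds apart. Srxn1 measured 79.5 and 82.1 TPM, G6pdx 69.7 and 69.0 TPM and Gclm 40.8 and 36.9 TPM.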

How the data were processed

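The deposited expected counts and TPM were made by the authors from reads of 2 libraries, with assembly mm10 and GENCODE M21, per the file headers and notes; neither the aligner nor the counter is named there, and strand use in counting is not stated. The deposited gene and alignment-based transcript tables also hold FPKM, the percent of a gene's expression in each transcript and, as scores, TPM bounds and an SD of the count within the library. The bounds surround a posterior mean TPM, so those of 7 of the 10 members held the TPM itself in both animals, and the level of the interval is not given. TPM was computed by the authors over all features, tRNAs and spike-ins included, and the deposited index-based tables gave TPM and estimated counts per transcript.

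Expected counts were rounded, scaled with TMM (edgeR 4.0.16, R 4.3.3) and compared as log2 ratios with 0.5 added; the ratio was tested on simulated data. With 1 group no p-value was fitted. Calls needed an absolute log2 ratio of 1, a mean count of 100 and TPM bounds apart. Alternatives were DESeq2 1.42.0 size factors, spike-ins, deposited TPM, FPKM, another pseudocount and count limit, and the index tables. Named genes were all members, all other aldo-keto reductases found, and genes inside the clusters or sharing windows of 100 bases with a member. Of each other list the 3 highest and every called gene were named. Markers listed at 0, Ptgs2, Lep and the genes above 300 TPM beside Akr1b7 were named after their values were seen. The members and the 20 lists were chosen with earlier results of these data known. The labels give the animals different numbers but the same donor code; they were treated as separate animals, and the spread between them may be partly technical. How reads of CAST alleles were handled is not stated either. Ratios of few counts have exact Clopper-Pearson intervals, and intervals cover counting error only.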

Additional observations from a re-analysis of the deposited data

How the results depend on the processing

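Under DESeq2 size factors, deposited TPM, spike-ins, a pseudocount of 5, count limits of 10 or 0 and the index tables, 0 members were called; each setting kept its count limit and, except for the index tables, the bounds. Without these filters Akr1c6 (4 and 2 counts) had a log2 ratio of -0.73 by TMM and -1.68 on deposited TPM, and Akr1c12 (about 1 count) 0.10 by TMM and -1.55 by index. The log2 ratio of Akr1b7 ran from 0.71 to 0.83 over these scalings. The direction of Akr1a1, Akr1b8, Akr1b10 and Akr1c18 was negative by TMM, DESeq2, spike-ins and index and positive on deposited TPM, each within 0.20 of 0. Akr1c14, which was not tested, turned further, from -0.55 by TMM, -0.57 by DESeq2 and spike-ins and -0.56 by index to 0.06 on deposited TPM; the ratio of Akr1c13 was 0.02 by TMM and -0.01 by index. The share of the Akr1c cluster held by Akr1c18 moved to 98.649% by index and 98.566% by expected counts, and ran from 98.809% to 98.824% with an animal left out. That of Akr1b7 ran from 60.6% to 71.9%. By index and in replicate 2 alone Akr1a1 stood above Akr1c18. Index levels of the members above 1 TPM were 0.715 to 1.18 times the alignment levels. On deposited TPM the adipocyte list fell from 5 called genes to 2 and the capsule list from 1 to 0. The ACTH and cAMP list fell from 5 to 4 on that scale, and the liver list rose from 2 to 3. With lower count limits the liver list had 4. At windows of 31 bases, sharing was 90.8% for Akr1b3 and 27.7% for Akr1b7. Having 2 libraries sets the limit: no ratio between animals has a replicate, and no ratio could be made with an animal left out. No paired analysis was possible because there is only 1 group. At 3 counts the depth allows 0.0742 and 0.0874 CPM, near the level of Akr1c6 and above that of Akr1c12.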
